A study of Arabidopsis thaliana with 2 samples.

Results

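JMJ17 (AT1G63490) and 9 other genes were compared between jmj17-1 mutant and wild-type (WT) seedlings of Arabidopsis thaliana. All 10 are listed as genes for demethylases of lysine 4 on histone H3 (H3K4). The question was whether the 9 stand higher where JMJ17 is mutated. The 10 genes were chosen by locus identifier, and all 10 were found in the table of 26743 features. They are 6 genes of the JmjC type, JMJ17, JMJ14 (AT4G20400), JMJ15 (AT2G34880), JMJ16 (AT1G08620), JMJ18 (AT1G30810) and JMJ19 (AT2G38950), and 4 genes of the LSD1 type, FLD (AT3G10390), LDL1 (AT1G62830), LDL2 (AT3G13682) and LDL3 (AT4G16310). Both genotypes are in the Col-0 background and were sampled as whole seedlings at an age of 7 days, after growth without sucrose in days of 16 h light and 8 h dark. There was 1 RNA sequencing library of jmj17-1, a line carrying a mutation in JMJ17, and 1 library of WT. The sources used here give neither the kind nor the position of the jmj17-1 lesion, nor the number of seedlings per library. With 1 library per genotype the differences have no replicate check, no test was made, and every value describes these 2 libraries.

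Methylation of H3K4 marks transcribed genes, and both enzyme types remove it. The JmjC enzymes hold an iron ion and use 2-oxoglutarate as co-substrate, and can act on the trimethylated form. The LSD1-type enzymes use flavin, and can act only on the lower methylation states. In Arabidopsis, JMJ17 is a relative of the animal KDM5 enzymes and is known from the response to dehydration and abscisic acid. JMJ14, JMJ15 and JMJ18 are known from the timing of flowering, JMJ16 from leaf senescence, and FLD, LDL1 and LDL2 from the repression of the floral repressor FLC.

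The coding stretch over the iron-binding site was compared between the JmjC genes. It was located by its protein motif, which fixes part of the match, so the likeness is of this stretch and not of whole genes. Each line gives 51 coding bases, 5′ to 3′, from the TAIR10.1 genome and its RefSeq annotation, and the capitals mark the codons at the positions of the iron-binding histidine and glutamate.
JMJ17: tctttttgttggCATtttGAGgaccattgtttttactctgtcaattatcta
JMJ14: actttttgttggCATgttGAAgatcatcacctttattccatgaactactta
JMJ15: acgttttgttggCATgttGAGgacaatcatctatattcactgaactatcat
JMJ16: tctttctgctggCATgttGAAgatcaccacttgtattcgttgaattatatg
JMJ18: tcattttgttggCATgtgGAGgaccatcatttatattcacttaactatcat
JMJ19: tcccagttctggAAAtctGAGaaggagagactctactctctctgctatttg
The JMJ17 stretch lies in 1 exon, at positions 23551674 to 23551724 of chromosome 1 (minus strand). The other stretches each cross an intron. JMJ14 has its stretch between 11010623 and 11010933 of chromosome 4, and JMJ16 between 2739165 and 2739624 of chromosome 1, both on the plus strand. That of JMJ19 lies between 16263337 and 16263576 of chromosome 2, also on the plus strand. JMJ15 has it between 14713616 and 14713753 of chromosome 2 and JMJ18 between 10939913 and 10940052 of chromosome 1, both on the minus strand. Against the JMJ17 stretch, 38 of the 51 bases were equal in JMJ18, 36 in JMJ14, 36 in JMJ15, 35 in JMJ16 and 28 in JMJ19. The first capital triplet encodes histidine in the 5 others but not in JMJ19. JMJ19 is kept among the demethylase genes as listed, and whether its product removes H3K4 methylation was not measured.

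Exact matches between these genes were short. No window of 50 bases from the annotated transcripts of any of the 10 genes occurred elsewhere in the genome or in another of the 10. The longest run of coding bases shared by any pair was 29 bases, in JMJ15 and JMJ18, and the longest that JMJ17 shared with a relative was 15 bases, with JMJ18. The 2 runs are shown because they bear on whether a read could be placed in the wrong gene.
JMJ15 and JMJ18: GACTTTGATTCAAACTGTGAAAGGGAATG
JMJ17 and JMJ18: TCATGCTGGATTCAA
The first lies on chromosome 2 from 14713032 to 14713060 in JMJ15 and on chromosome 1 from 10939218 to 10939246 in JMJ18. The other lies on chromosome 1, from 23550945 to 23550959 in JMJ17 and from 10939674 to 10939688 in JMJ18. Reads shorter than 50 bases were not examined, and no source used here gives the read length.

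Levels are the authors' deposited RPKM values, in which reads are scaled by the length of the feature (per 1000 bases) and by the depth of the library (per 1000000 reads). The ratio between the libraries of a feature should be a ratio of 2 whole read numbers times 1 depth ratio, and this held, within a relative 1e-11, for 18558 of 24815 features above 0 in both libraries (74.8%). It gave 45403267 reads behind the jmj17-1 values and 53890006 behind the WT values, and whole reads for 9 of the 10 genes. For JMJ14 no whole reads were found, and its reads are approximate, from a reference length. Intervals below are 95% intervals of these reads, exact Clopper-Pearson for a fold and exact Poisson for a level. They cover counting error only. Change across all features was measured as a log2 ratio, jmj17-1 over WT, after 1 RPKM had been added to each level, over the 18969 features that averaged 1 RPKM or more, and a fixed size of 2-fold on that scale stood in for a test.

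JMJ17 comes first, as a check of the genotype labels. It stood at 2.90 RPKM in jmj17-1 (619 reads, interval 2.68 to 3.14) and at 5.48 RPKM in WT (1389 reads, 5.20 to 5.78). The 2 intervals did not overlap, and the jmj17-1 level was 52.9% of the WT level (fold 0.529, 0.480 to 0.582). The log2 ratio was -0.73, short of the 2-fold rule. Of the 18969 features analysed, 228 (1.20%) had a log2 ratio as low as this or lower. The transcript was still detected in jmj17-1, with 619 reads. Reads from outside an interrupted part of a gene can remain in a mutant, and the files hold 1 value per gene, so whether the full JMJ17 transcript was made was not measured.

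The lower value stood at JMJ17 and not at the genes beside it. In TAIR10.1, JMJ17 spans positions 23544554 to 23553232 of chromosome 1 (minus strand), has 5123 bases of exon and overlaps no annotated gene. AT1G63480, which encodes the AT-hook protein AHL12 and lies 2320 bases from JMJ17 on its downstream side, stood at 8.11 RPKM in jmj17-1 and 8.30 in WT (fold 0.977, 0.884 to 1.08). BSK7, a brassinosteroid-signalling kinase gene 2166 bases upstream, stood at 15.2 RPKM in jmj17-1 and 14.98 in WT (fold 1.01, 0.949 to 1.08). Both folds included 1 within counting error.

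**Figure D1:**
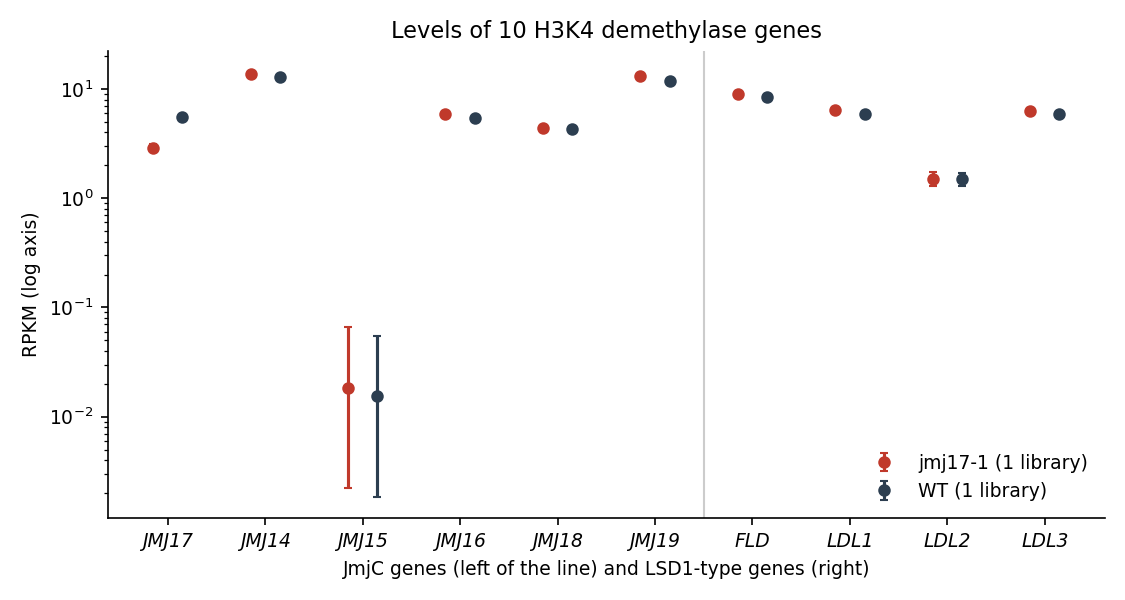
Levels of the 10 genes in RPKM on a log axis, in the jmj17-1 library (left point of each pair) and the WT library (right point), with 95% Poisson intervals of the reads as bars. JMJ17 is lower in jmj17-1 at 2.90 RPKM, against 5.48 in WT, and the pairs of the other genes lie close together, with JMJ15 far below the rest.

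None of the other JmjC genes came near a 2-fold difference. JMJ14, a repressor of flowering, was the most abundant of the 10, at 13.7 RPKM in jmj17-1 and 12.96 in WT (fold 1.06, 0.999 to 1.12). JMJ19 stood at 13.04 RPKM in jmj17-1 (1506 reads) and 11.9 in WT (1629 reads), a fold of 1.10 (1.02 to 1.18). JMJ16 stood at 5.94 RPKM in jmj17-1 (1212 reads) and 5.40 in WT (1308 reads), a fold of 1.10 (1.02 to 1.19). JMJ18, known from phloem companion cells, stood at 4.35 RPKM in jmj17-1 and 4.32 in WT (fold 1.01, 0.917 to 1.11). JMJ15 was barely detected, with 2 reads in jmj17-1 (0.0182 RPKM) and 2 in WT (0.0153 RPKM), too few to give a fold.

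The LSD1-type genes differed as little. FLD, a gene of the autonomous flowering pathway, stood at 9.03 RPKM in jmj17-1 and 8.49 in WT (fold 1.06, 0.985 to 1.15). LDL1 stood at 6.41 RPKM in jmj17-1 and 5.92 in WT (fold 1.08, 0.982 to 1.19). LDL3, known from the removal of dimethylated H3K4 during shoot regeneration, stood at 6.35 RPKM in jmj17-1 and 5.94 in WT (fold 1.07, 1.0005 to 1.14). LDL2 was the least abundant of the LSD1-type genes, at 1.492 RPKM in jmj17-1 and 1.496 in WT (fold 0.997, 0.813 to 1.22).

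Of the 9 genes other than JMJ17, 8 passed the filter on low levels, all but JMJ15. Past the 2-fold rule, 0 of these 8 were higher and 0 lower, where 0.39% of all analysed features were higher and 0.58% lower. At 1.5-fold again 0 of the 8 were higher and 0 lower, where 1.51% and 1.93% of all features were, and JMJ17 was lower. The log2 ratios of the 8 ran from -0.0022 for LDL2 to 0.12 for JMJ19. Their median was 0.08, the median of all analysed features was 0.04, and 73.4% of all features lay within 0.2 of 0. Above 0 lay 7 of the 8, as did 60.5% of all features. For 5 of the 8 the counting interval of the fold included 1, and for JMJ16, JMJ19 and LDL3 it lay above 1. The median fold of all analysed features was 1.03, and it lay within the intervals of JMJ16, JMJ19 and LDL3. With the median of all features set to 0, these 3 had log2 ratios of 0.07, 0.08 and 0.04. The highest upper bound of any of the 8 folds was 1.22, for LDL2.

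**Figure D2:**
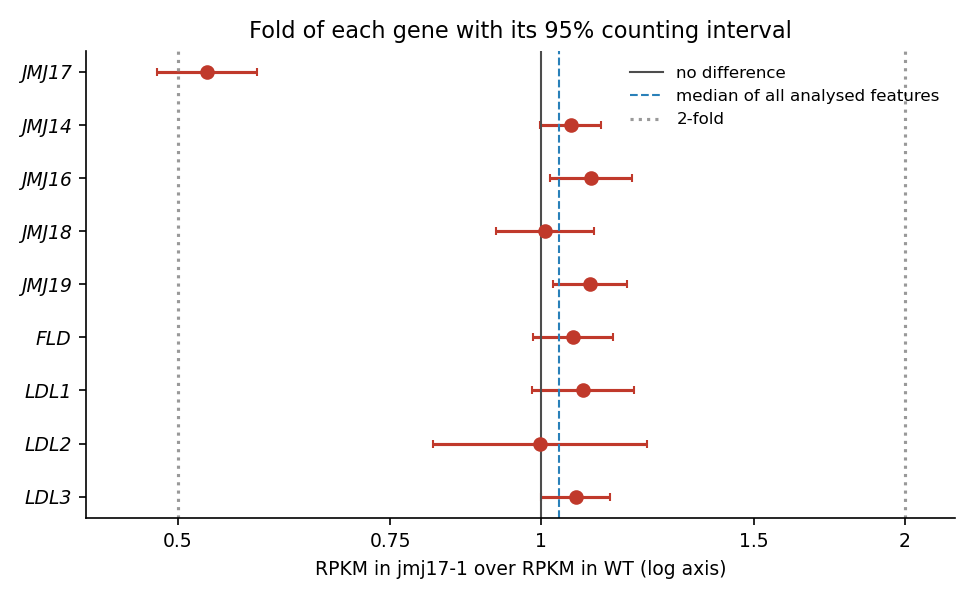
RPKM in jmj17-1 over RPKM in WT for JMJ17 and the 8 other genes analysed, on a log axis, with 95% Clopper-Pearson intervals of the reads. JMJ17 lies at 0.529, and the 8 others lie between 0.997 and 1.10, close to the dashed median of all analysed features at 1.03.

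**Figure D3:**
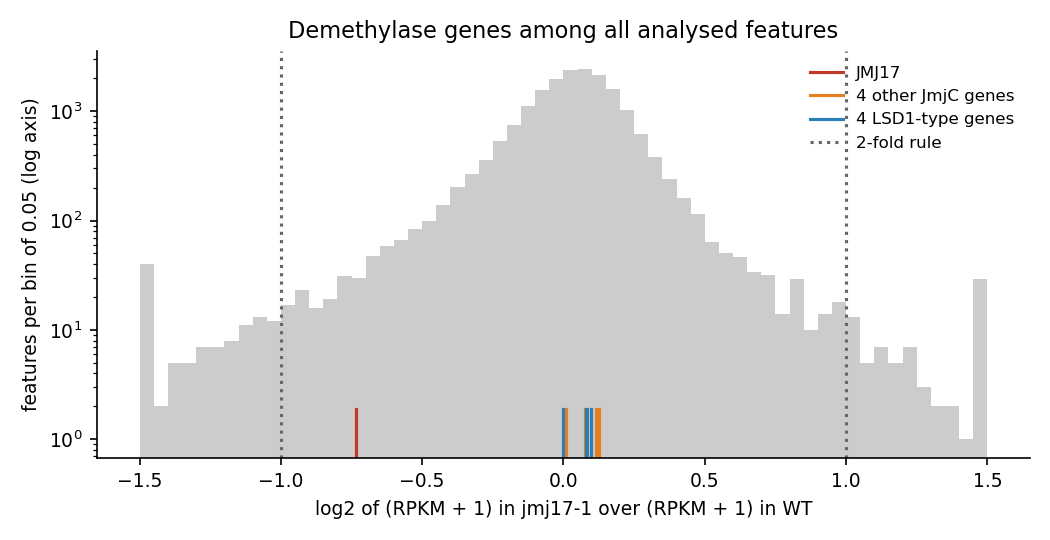
Log2 ratios of the 18969 analysed features as a histogram with a log count axis, in which features beyond 1.5 in either direction are held in the end bins. Short coloured lines mark JMJ17 at -0.73 and the 8 other genes between -0.0022 and 0.12, in the centre of the distribution.

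The summed level of the JmjC paralogues was slightly higher in jmj17-1, by an amount that depended on the scaling. Summed over the 5 JmjC paralogues, the level was 37.07 RPKM in jmj17-1 and 34.6 in WT, a difference of 2.48 RPKM, while for JMJ17 itself this difference was -2.58 RPKM. All 6 JmjC genes together summed to 39.97 RPKM in jmj17-1 and 40.08 in WT. JMJ17 supplied 7.26% of that sum in jmj17-1 and 13.7% in WT. Of the 2.48 RPKM, JMJ19, the gene without the histidine codon, supplied 1.16. The jmj17-1 library was also divided by the median ratio of all features, a ratio taken with 1 RPKM added. The summed difference was then 1.42 RPKM and that of JMJ17 -2.67. Under quantile normalization they were 1.73 and -2.63 RPKM. With the libraries rescaled to equal sums over nuclear genes, they were 2.76 and -2.55 RPKM. The ratio of the sums of the 5 paralogues was 1.07 as deposited, 1.04 with the median of all features set to 0, and 1.08 with the nuclear rescaling. The 4 LSD1-type genes summed to 23.3 RPKM in jmj17-1 and 21.9 in WT. All values are from whole seedlings, in which fewer cells of a type and less RNA per cell cannot be told apart.

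The order of the levels changed mainly at JMJ17. In jmj17-1 it ran JMJ14, JMJ19, FLD, LDL1, LDL3, JMJ16, JMJ18, JMJ17, LDL2 and JMJ15. In WT it ran JMJ14, JMJ19, FLD, LDL3, LDL1, JMJ17, JMJ16, JMJ18, LDL2 and JMJ15. JMJ17 was eighth in jmj17-1, below JMJ18 beyond counting error, and sixth in WT, where its interval overlapped those of LDL1 above it and JMJ16 below it. The ratio of JMJ14 to JMJ19 was 1.05 in jmj17-1 (0.984 to 1.12) and 1.09 in WT (1.02 to 1.16), so counting error covered it in jmj17-1 and not in WT, with the reads of JMJ14 approximate. LDL1 and LDL3 did not differ beyond counting error in either library, nor did LDL3 and JMJ16 in jmj17-1.

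Several of the genes overlap a gene of the opposite strand in TAIR10.1, and since no source used here says whether reads were counted by strand, their values are uncertain. JMJ18 shares 1177 of its exonic bases (27.0%) with AT1G30800, which was not analysed here. JMJ16 shares 175 bases with AT1G04657 and 121 with THA1, a threonine aldolase gene. THA1 stood at 10.2 RPKM in jmj17-1 and 2.70 in WT (fold 3.79, 3.29 to 4.37). At that level and even coverage the 121 bases would hold about 56.2 reads in jmj17-1 and 17.6 in WT, where JMJ16 had 1212 reads in jmj17-1 and 1308 in WT. The reads of JMJ16 gave a length of 4492 bases, where TAIR10.1 has 5039 exonic bases. Whether the authors' JMJ16 feature held these 121 bases is not known. The part of THA1 in the JMJ16 value was not tested. FLD shares 75 bases with AT3G10405, which stood at 31.6 RPKM in jmj17-1 and 39.7 in WT (fold 0.794, 0.760 to 0.830). By the same calculation these bases would hold about 107.5 reads in jmj17-1 and 160.6 in WT, or 8.44% of the FLD reads in jmj17-1 and 11.3% in WT. This share is larger than that of THA1 in JMJ16, at 4.64% in jmj17-1 and 1.35% in WT, and its part in the FLD value was not tested either. JMJ14 shares 22 bases with GSNAP, whose own fold was 1.001 (0.943 to 1.06), and LDL3 shares 107 bases with AT4G16330, whose fold was 0.979 (0.915 to 1.05). The reads of LDL3 gave a length of 5974 bases, where TAIR10.1 has 6424, so its 107 bases may not have been counted either. JMJ17, JMJ15, JMJ19, LDL1 and LDL2 overlap no annotated gene.

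**Figure D4:**
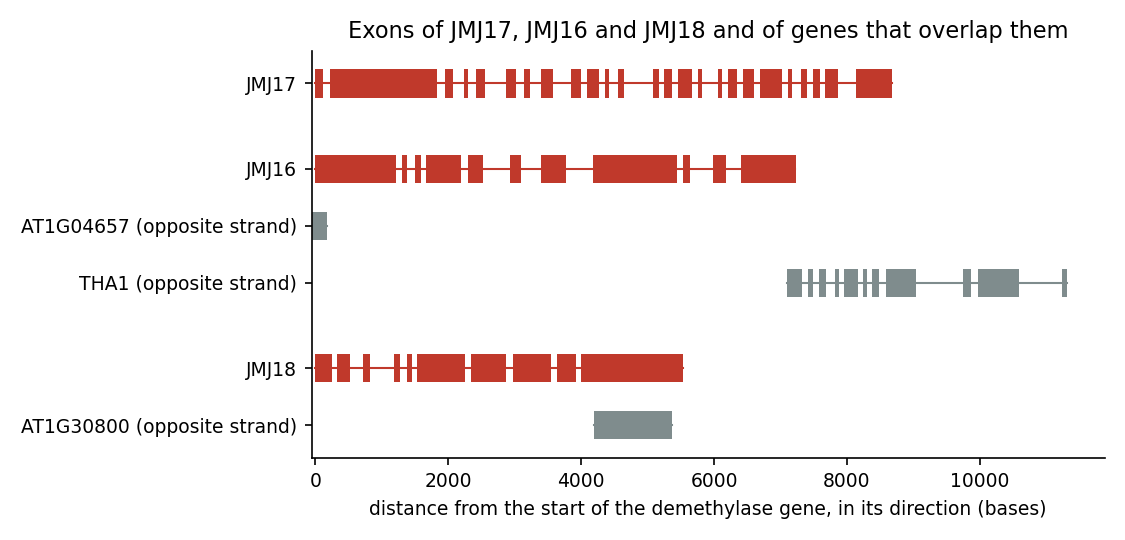
Exons (boxes) of JMJ17, JMJ16 and JMJ18 in red and of the genes that overlap them on the opposite strand in grey, by distance in bases from the start of the demethylase gene. THA1 meets JMJ16 only at the end of that gene, AT1G30800 lies within the last exon of JMJ18, and JMJ17 has no overlapping gene.

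Other JmjC genes, genes that place the mark and genes that work with the 10 were taken from lists chosen by family or function. Another 15 JmjC genes have products that act on other residues or are less well known. Of these 15, 0 were higher and 0 lower by the 2-fold rule, where 0.39% and 0.58% of all analysed features were. The median log2 ratio of the 15 was 0.01, with 8 above 0 and 7 below, where 60.5% of all analysed features lay above 0. The largest differences were JMJ26 at 3.58 RPKM in jmj17-1 and 2.47 in WT (fold 1.45, 1.27 to 1.66) and JMJ22 at 11.07 RPKM in jmj17-1 and 8.33 in WT (fold 1.33, 1.20 to 1.47). Both exceeded those of every close paralogue of JMJ17.

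The enzymes that place the mark stood near the median of all features too. Of 10 genes for H3K4 methyltransferases and core subunits of their COMPASS complex, 0 passed, 7 lay above 0 and 3 below, and the median was 0.04. Of all analysed features, 0.39% passed the rule as higher and 0.58% as lower, and 60.5% lay above 0. The subunit gene WDR5A stood at 3.72 RPKM in jmj17-1 and 3.07 in WT (fold 1.21, 1.01 to 1.45), and the methyltransferase gene ATX1 at 4.88 RPKM in jmj17-1 and 5.36 in WT (fold 0.912, 0.830 to 1.001). Of 7 genes for proteins that work with the demethylases, such as the histone deacetylase HDA6, 0 passed and the median was 0.04. NAC050, a transcription factor that binds JMJ14, stood at 12.3 RPKM in jmj17-1 and 10.6 in WT (fold 1.15, 1.07 to 1.24), and MSI5, a histone-binding protein gene, at 4.31 RPKM in jmj17-1 and 4.77 in WT (fold 0.903, 0.786 to 1.04).

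Genes described as direct targets of the demethylases were read last. Of 8, 6 were analysed, and their median log2 ratio was 0.09. By the 2-fold rule 0 of the 6 passed, where 0.39% of all analysed features were higher and 0.58% lower. OST1, a protein kinase gene of abscisic acid signalling described as a target of JMJ17, stood at 8.93 RPKM in jmj17-1 (725 reads) and 7.89 in WT (761 reads), a fold of 1.13 (1.02 to 1.25). FLC, a target of FLD and LDL1, stood at 3.02 RPKM in jmj17-1 (168 reads) and 2.06 in WT (136 reads), a fold of 1.47 (1.16 to 1.85). WRKY53, a senescence regulator and target of JMJ16, stood at 1.40 RPKM in jmj17-1 (96 reads) and 2.06 in WT (168 reads), a fold of 0.679 (0.522 to 0.877). The intervals of FLC and WRKY53 lay on opposite sides of 1. The florigen gene FT, a target of JMJ14, had 3 reads in jmj17-1 and 1 in WT, too few to give a fold.

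**Figure D5:**
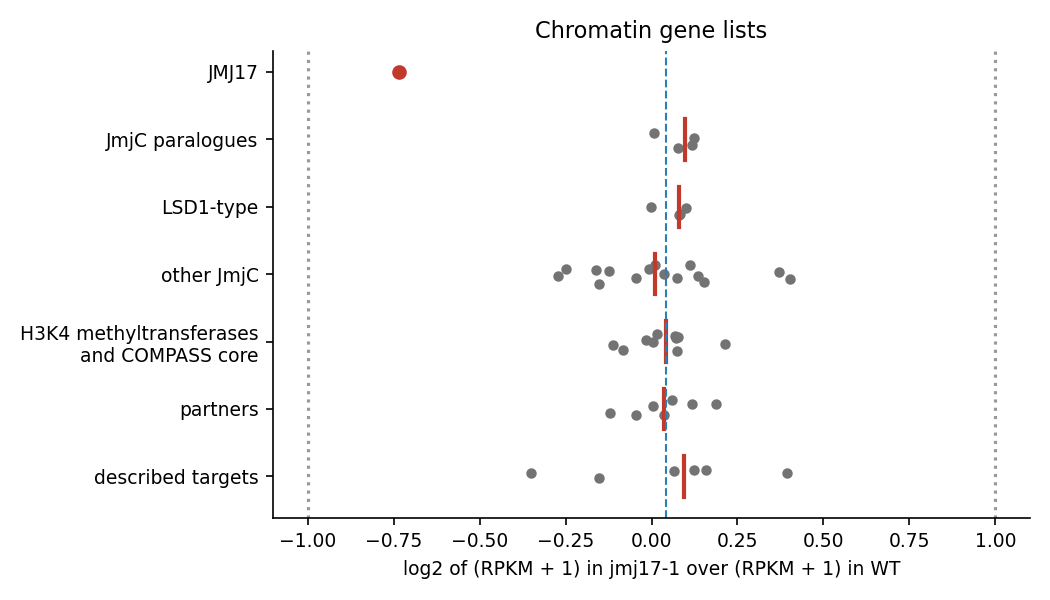
Log2 ratios of JMJ17 and of the analysed members of 6 chromatin gene lists, 1 grey point per gene, with the median of each list as a red line, the median of all analysed features as a dashed line and the 2-fold rule as dotted lines. JMJ17 at -0.73 lies below every point, and the widest spread is among the other JmjC genes and the described targets.

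The 3 genes nearest to JMJ17 in level over both libraries, by distance on the log2(RPKM + 1) scale, were AT1G72910, CW9 and NAC3. They stood at 2.83, 3.03 and 3.03 RPKM in jmj17-1 and at 5.51, 5.42 and 5.55 RPKM in WT. With 2 libraries this likeness is a description of 2 values per gene.

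Markers of organs gave the sample context. The 3 leaf markers, LHCB1.3, RBCS1A and RCA, summed to 15314 RPKM in jmj17-1 and 16953 in WT. All 3 were lower in jmj17-1, at folds of 0.851, 0.973 and 0.856, where 60.5% of all analysed features lay above 0. Past the 2-fold rule were 0 of the 3, where 0.39% of all analysed features were higher and 0.58% lower. The 6 root markers summed to 47.7 RPKM in jmj17-1 and 38.6 in WT, with 6 of 6 log2 ratios above 0, as were 60.5% of all features, and 0 past the 2-fold rule. For PIN2, COBL9 and EXPA7 the counting interval of the fold included 1, and WOX5 had the largest plain fold, 2.18 (1.52 to 3.15). The seed storage genes CRU3 and CRA1 summed to 2.25 RPKM in jmj17-1 and 13.7 in WT. Both were past the 2-fold rule, lower, as were 0.58% of all analysed features, at folds of 0.0870 and 0.230. The flower markers AP1 and AP3 were near 0 in both libraries. The part of these differences in the values of the demethylase genes was not tested.

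In the authors' deposited table JMJ17 had a Z score of -0.89 and a p of 0.372. The lowest p among the 9 other genes in the authors' deposited table was 0.817, for JMJ19. Of the 10 genes, 0 were in the authors' deposited table of 288 genes labelled with a p of 0.01, and 0 in that of 410 genes labelled with 0.05. Beside 26743 rows in the whole deposited table, both are small, so 0 of 10 is not read as a result about these genes. The deposited p is the two-sided normal p of the Z score in all 26743 rows, within 1e-06, and rests on 1 library per genotype.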

How the data were processed

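RNA was measured in 1 library of jmj17-1 and 1 of WT seedlings, made with a TruSeq RNA kit, per the labels. The authors deposited RPKM values with the TAIR10 build, per the submitters' processing notes. The sources used here name no aligner, counter, feature lengths or strand setting. The Z score and p-value are the authors' deposited columns. The 2 library columns were assigned by title.

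From these were computed log2 ratios with 1 RPKM added, folds without it, and reads from the ratios of RPKM, with feature lengths set nearest to the exonic length in RefSeq's TAIR10.1 annotation, a different release whose coordinates are given. Reads can be duplicates or mates, so intervals are of counting error only. Low counts were filtered at a mean of 1 RPKM. Scripts used Python 3.11.15, numpy 2.4.6, pandas 2.3.3, scipy 1.17.1 and Biopython 1.88, and were tested on simulated data. The members and lists were chosen with earlier results of these data known. Named were all 10 members, the genes beside JMJ17, the 3 nearest in level, OST1, and the 2 largest differences of each list with none past 2-fold. FT, THA1, AT3G10405 and WOX5, the ratios between neighbouring levels and the summed differences under other scalings were added after values were seen. Alternatives were other pseudocounts (0.1 and 5 RPKM), filters, scalings and a 1.5-fold rule.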

Additional observations from a re-analysis of the deposited data

How the results depend on the processing

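No paired analysis was possible because each genotype had only 1 library. Of 139 values under other settings, 129 stayed within counting error or, for counts, within 1.5 times, and 10 moved. Some of the 129 could not move, because a filter leaves the log2 ratio of a gene as it was. The interval of JMJ15, from 2 reads in each library, is also too wide for its value to count as moved. The 129 is therefore not a measure of robustness. The log2 ratio of JMJ17 was -0.90 with 0.1 RPKM added and -0.41 with 5 RPKM added. JMJ17 averages 4.19 RPKM, so the filter at 5 RPKM left it without a value. With the 1.5-fold rule 1 demethylase gene, JMJ17, was lower. The ratio of summed RPKM of the 9 genes other than JMJ17 was 1.07, and 1.04 with the median of all features set to 0. The counts over all features were 142 higher with 0.1 RPKM added, 25 higher and 49 lower with 5 RPKM added, 71 lower at a mean of at least 5 RPKM, and 287 higher and 366 lower with the 1.5-fold rule, against 74 and 110. LDL2 and JMJ18 changed sign close to 0, between -0.044 and 0.0046 and between -0.034 and 0.017. Depth limits JMJ15, at 2 reads in each library, and LDL2, whose 179 reads in jmj17-1 and 213 in WT leave a fold between 0.813 and 1.22.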

Other observations

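The read recovery set JMJ14 apart from the 9 other genes. For those 9 the ratio between the libraries was a ratio of whole reads, as it was for 74.8% of features above 0 in both libraries. After the depth ratio had been shifted on purpose, 0.161% of features passed the same tolerance. The lengths that the recovered reads gave were 4700 bases for JMJ17 and 2421 for JMJ15, where the TAIR10.1 annotation has 5123 and 2421 exonic bases.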
